A study of Mus musculus with 12 samples.

Results

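The genes described here are 35 genes of the cell cycle, 14 that act in DNA replication (S phase) and 21 that act in G2 and mitosis, taken by name from the table of 23284 genes in which RNA of intestinal group 3 innate lymphoid cells (ILC3s) was measured. All 35 were in the table and all 35 passed the filter for testing, met by 12502 genes, of 1 FPKM or more (a level from sequenced fragments, scaled to gene length and library size) in 3 or more libraries. ILC3s were sorted from the intraepithelial layer (IEL) and the lamina propria (LP) of the small intestine of hairless HR-1 mice at 18 weeks of age. PA milk mice were pups of mothers on normal chow that were nursed by mothers given chow with added palmitic acid, a long-chain saturated fatty acid, and ate normal chow from weaning. ND mice were nursed on normal milk. The labels name no transgene and no other treatment, and each of the 4 groups (PA milk IEL, PA milk LP, ND IEL, ND LP) had 3 libraries, 12 in all.

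Cells that prepare to divide copy their DNA in S phase and separate the copies in mitosis. The MCM proteins form the helicase that opens DNA at replication origins, PCNA is the ring that holds DNA polymerases on their template, and ribonucleotide reductase, thymidylate synthase and thymidine kinase supply the nucleotides. In G2 and mitosis, cyclins A and B activate the kinase CDK1, the Aurora and Polo-like kinases and kinesin motors build and work the spindle, and the checkpoint proteins BUB1 and BUBR1 hold back the activator of the anaphase-promoting complex, CDC20, until each chromosome is attached. Many of these genes are transcribed mainly in dividing cells, and ILC3s of the adult intestine are mostly long-lived tissue-resident cells that divide slowly. In RNA of a whole sorted population, fewer cells in cycle and less RNA per cycling cell cannot be told apart.

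As sets, the S phase and the mitosis genes differed in short elements of their promoters. Promoters are printed for 7 genes whose levels are described below, 4 of mitosis and 3 of the replication helicase. The cell cycle homology region (CHR) and the CCAAT box are short elements of promoters active in G2 and mitosis, and E2F sites are typical of S phase genes. The words searched on both strands were TTTGAA or its variant TTCGAA for the CHR, CCAAT for the CCAAT box, and TTCCCGC with its variants TTGGCGC as well as TTCGCGC plus the variant TTGCCGC for E2F, and E2F words can overlap a CCAAT box or each other. In the 250 bases before the gene start (RefSeq, GRCm38.p6), 28 of the 35 genes had 30 promoters, 14 of S phase genes and 16 of mitosis genes. A CHR word stood in 50.0% of the mitosis promoters (8 of 16), in 14.3% of the S phase promoters (2 of 14) and in 17.1% of all 32851 promoters. An E2F word stood in 64.3% of the S phase promoters (9 of 14), in 18.8% of the mitosis promoters (3 of 16) and in 7.89% of all. A CCAAT box stood in 83.3% of the 30 promoters and in 33.8% of all, and a CHR word together with a CCAAT box in 50.0% of the mitosis promoters and in 6.02% of all. Single genes did not all follow their set. Of those printed below, Mcm2 and Mcm3 had no E2F word in the 250 bases. Mcm2 had a CHR word, and Mki67 had an E2F word. The CHR word of Ccnb2 lay outside the 150 bases printed. A match is a run of letters and not a measured site of binding.

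In the 150 bases directly before the start of each of the 7 genes, printed 5′ to 3′ along the strand of the gene (GRCm38.p6), capitals mark every such word, of which Top2a had 3 CHR words and 4 CCAAT boxes and Mcm6 had 4 E2F words in 2 overlapping pairs.
Mki67 (chr7:135716380-135716529, minus strand): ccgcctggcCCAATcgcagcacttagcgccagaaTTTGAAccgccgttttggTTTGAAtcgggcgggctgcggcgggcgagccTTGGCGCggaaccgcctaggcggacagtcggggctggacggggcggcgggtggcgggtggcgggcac
Top2a (chr11:99024190-99024339, minus strand): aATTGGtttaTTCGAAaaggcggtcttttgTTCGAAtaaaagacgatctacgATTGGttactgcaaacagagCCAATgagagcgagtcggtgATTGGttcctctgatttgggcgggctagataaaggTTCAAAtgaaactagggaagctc
Cdc20 (chr4:118437344-118437493, minus strand): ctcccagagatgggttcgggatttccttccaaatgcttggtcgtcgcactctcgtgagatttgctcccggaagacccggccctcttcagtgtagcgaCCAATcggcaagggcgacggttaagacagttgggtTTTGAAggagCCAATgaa
Ccnb2 (chr9:70421555-70421704, minus strand): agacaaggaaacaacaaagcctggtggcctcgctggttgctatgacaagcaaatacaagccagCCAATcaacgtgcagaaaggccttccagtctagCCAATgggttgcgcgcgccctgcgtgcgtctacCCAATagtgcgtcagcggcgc
Mcm2 (chr6:88898781-88898930, minus strand): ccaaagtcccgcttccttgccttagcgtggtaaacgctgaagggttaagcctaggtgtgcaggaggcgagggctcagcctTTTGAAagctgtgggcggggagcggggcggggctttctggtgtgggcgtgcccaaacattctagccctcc
Mcm3 (chr1:20820313-20820462, minus strand): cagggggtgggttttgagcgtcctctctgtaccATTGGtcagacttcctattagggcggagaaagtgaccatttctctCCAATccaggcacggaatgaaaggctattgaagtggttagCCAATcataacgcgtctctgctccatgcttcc
Mcm6 (chr1:128359706-128359855, minus strand): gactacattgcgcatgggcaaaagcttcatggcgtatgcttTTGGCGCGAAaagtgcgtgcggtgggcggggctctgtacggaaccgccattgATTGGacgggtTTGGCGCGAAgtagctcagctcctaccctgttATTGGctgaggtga

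The libraries differed more in how many genes they detected than in depth. Reads recovered from the deposited counts ran from 8.76 to 14.6 M per library, while genes at 1 FPKM or more numbered from 4390 to 11378. Totals of the scaled counts ran from 9376529 to 11710874, but these were already divided by a size factor and do not measure depth. The sparsest were replicate 2 of PA milk IEL, with 4390 genes, and replicate 2 of PA milk LP, with 5637, and no other library had fewer than 7863. Of 18 markers of ILC3s and of the sort, these libraries held 3 and 4 at 1 FPKM or more and the other 10 libraries held 6 to 18. Thy1, used in the sort, was at 0 in 5 libraries. The labelled cell type was thus poorly marked in the sparsest libraries. The gate, per the methods, was for lineage-negative cells that stain for CD4, Thy1.2, CD25 and Nrp1. A figure legend of the paper names CD45 where the methods name CD4. Fold changes in PA milk that move much without both sparsest libraries are given in both ways for the genes and lists named below.

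Transcripts of other cells were present, and some of those cells divide. The 20 genes of the epithelium list, among them Epcam and Vil1, took 3.85% to 10.7% of all FPKM in ND IEL, 0.699% to 7.12% in PA milk IEL, 0.531% to 1.07% in ND LP and 0.0751% to 0.385% in PA milk LP. The list of 10 crypt stem cell genes took 0.0708% at most. Of its defining genes Lgr5 reached 2.70 FPKM in 1 library and Olfm4 stood at 354 and 303 FPKM in ND IEL replicates 1 and 3 and at 107 FPKM or less elsewhere. The 11 B and plasma cell genes in the table took between 0.00648% and 3.04%. The 8 T cell genes took at most 0.0691% and the 12 myeloid genes 0.0660% to 1.49%. The part of these cells in the levels of the cell cycle genes was not tested.

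The cell cycle genes were measured in nearly all libraries. Of the 35 genes, 25 to 35 were at 1 FPKM or more in a library, and 18 of the 35 were so in all 12 libraries, against 18.1% of the 12502 genes tested. Of the 420 values, 20 were at or under a floor of 3 reads, under which values have no order. The highest level belonged to Stmn1, encoding the microtubule regulator stathmin that many cells also express outside mitosis, with a lowest value of 175 FPKM, a median of 442 FPKM and a highest of 2083 FPKM. Next in the order of medians were Birc5, the survivin subunit of the chromosomal passenger complex, at 135 FPKM, Pcna at 130 FPKM and Ube2c, the ubiquitin-conjugating enzyme of the anaphase-promoting complex, at 123 FPKM. The lowest medians were those of the checkpoint kinase gene Bub1 at 1.46 FPKM, of Cenpf, encoding a kinetochore protein, at 2.88 FPKM, and of Cenpe, encoding a kinetochore kinesin, at 4.37 FPKM. The ranges of neighbouring genes in this order overlapped throughout. Pcna, which also serves DNA repair, ranged from 85.9 to 276 FPKM over the 12 libraries.

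**Figure D1:**
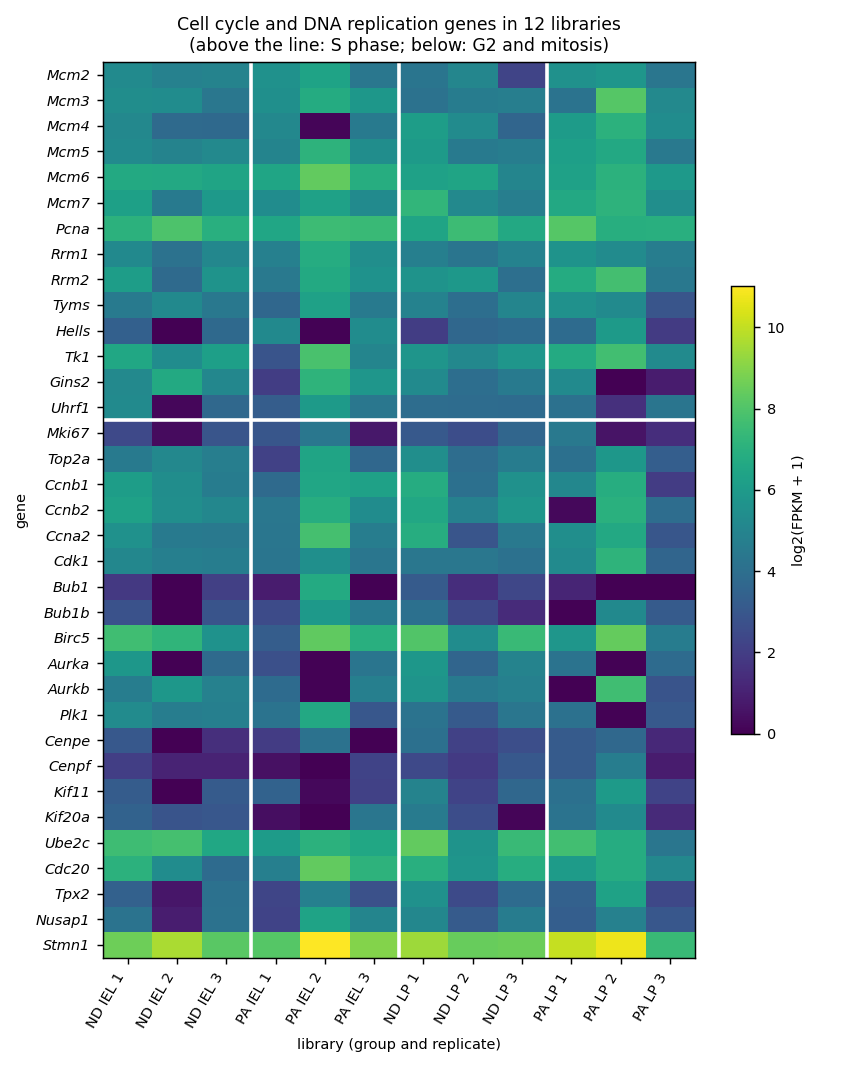
Level of the 35 cell cycle genes, as log2(FPKM + 1) in colour, in each of the 12 libraries (columns, by group and replicate), with the 14 S phase genes above the white line and the 21 mitosis genes below it. Replicates 2 of PA milk IEL and of PA milk LP hold most of the brightest cells, and also dark ones for genes at or near 0 such as Aurka.

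Both sparsest libraries held the highest levels of these genes. For 17 of the 35 genes the highest value was in PA milk IEL replicate 2 and for 13 in PA milk LP replicate 2, 30 of 35 together, against 31.4% of all genes tested. The 35 genes summed to 5498 and 4796 FPKM in these libraries and to 806 to 2775 FPKM in the other 10, which was 0.708% and 0.626% of all FPKM against 0.107% to 0.364%. In each of them 15 genes were at 100 FPKM or more, and in the other libraries 1 to 7. Detected genes as a whole were also high there, with a median of 83.8 FPKM and 46.9 FPKM over all genes at 1 FPKM or more against 13.3 to 26.4 FPKM elsewhere. Ranked among the detected genes of its own library, the median cell cycle gene stood at the 59.0th and the 75.3rd percentile in these libraries and between the 50.0th and the 73.7th in the other 10, so that 1 of the sparsest lay inside that range of ranks and 1 just above it.

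**Figure D2:**
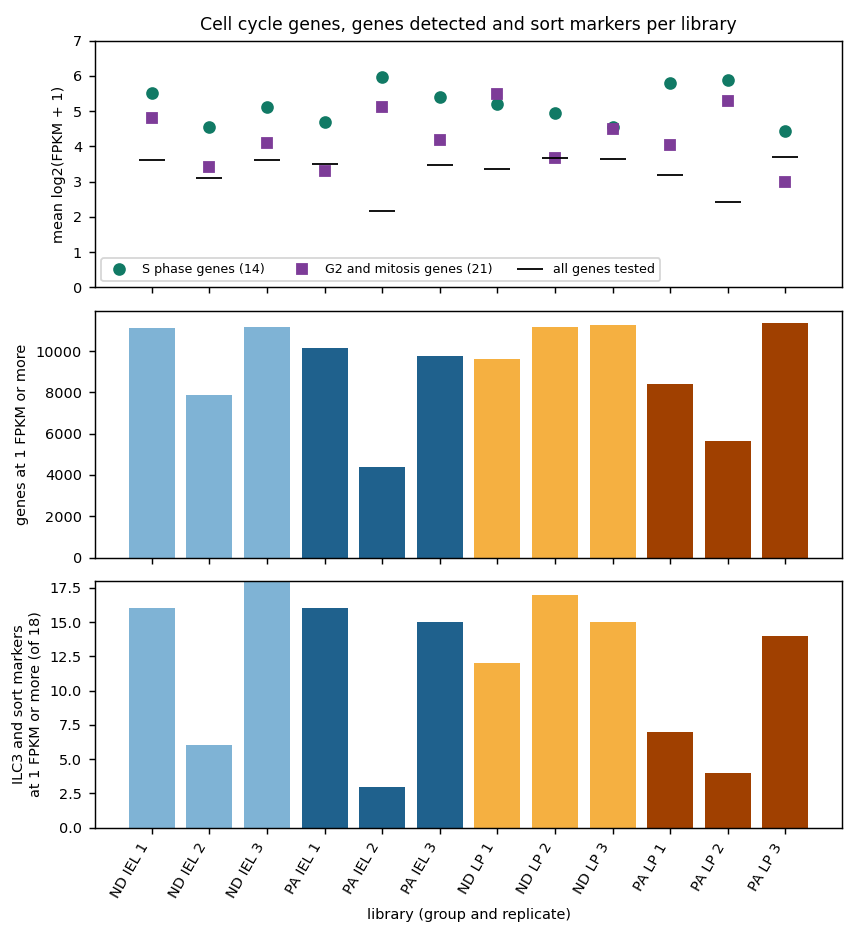
Top, mean log2(FPKM + 1) of the 14 S phase genes, the 21 mitosis genes and all 12502 genes tested in each library; middle, number of genes at 1 FPKM or more; bottom, number of the 18 ILC3 and sort markers at 1 FPKM or more. In replicates 2 of PA milk IEL and of PA milk LP the cell cycle means are high (5.11 to 5.98) while the mean of all genes is low (2.16 and 2.43) and 3 and 4 markers are detected.

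Averaged over the 35 genes, the level did not separate diets or layers. The mean log2(FPKM + 1) was 4.66 ± 0.80 (SD, n = 3) in PA milk IEL, 4.49 ± 0.62 in ND IEL, 4.61 ± 0.99 in PA milk LP and 4.70 ± 0.61 in ND LP. The differences between these means were smaller than the pooled SD between replicates, 0.77. The S phase mean was 5.36 ± 0.64, 5.06 ± 0.50, 5.37 ± 0.81 and 4.90 ± 0.33 in the same order of groups, and the mitosis mean 4.19 ± 0.91, 4.10 ± 0.70, 4.11 ± 1.15 and 4.56 ± 0.91.

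Mki67 and Top2a, the usual markers of cycling cells, did not separate the diets in either layer. Mki67, whose product coats mitotic chromosomes, was at 6.73, 19.6 and 0.62 FPKM in PA milk IEL replicates 1, 2 and 3 and at 4.44, 0.26 and 6.54 FPKM in ND IEL. In LP it was at 20.8, 0.50 and 1.70 FPKM in PA milk mice and at 7.42, 5.03 and 11.4 FPKM in ND mice. The diets overlapped in each layer, the highest value in PA milk and 1 or more PA milk values inside or below those of ND, and the log2 fold change was 0.77 (SE 1.34) in IEL and -0.95 (SE 1.34) in LP, with adjusted p of 0.986 and 0.979 (limma). Top2a, encoding the topoisomerase that untangles replicated DNA, was at 3.37, 85.3 and 11.9 FPKM in PA milk IEL and at 21.6, 34.7 and 24.9 FPKM in ND IEL. In LP it was at 15.9, 56.0 and 8.83 FPKM in PA milk mice and at 42.1, 14.3 and 23.8 FPKM in ND mice. In both layers replicate 2 of PA milk was above all ND values and at least 1 other PA milk library below them all, and the log2 fold changes were -0.70 (SE 1.15) in IEL and -0.26 (SE 1.15) in LP. Without the sparsest library of each layer they were -1.88 and -0.98 for Top2a and -0.08 and -0.16 for Mki67. Between the layers in ND mice the log2 fold change, LP over IEL, was 1.20 (SE 1.34) for Mki67 and -0.12 (SE 1.15) for Top2a, and in PA milk mice -0.51 (SE 1.34) and 0.32 (SE 1.15). The latter were, with the 2 sparsest libraries left out, 1.12 for Mki67, the opposite direction, and 0.78 for Top2a.

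**Figure D3:**
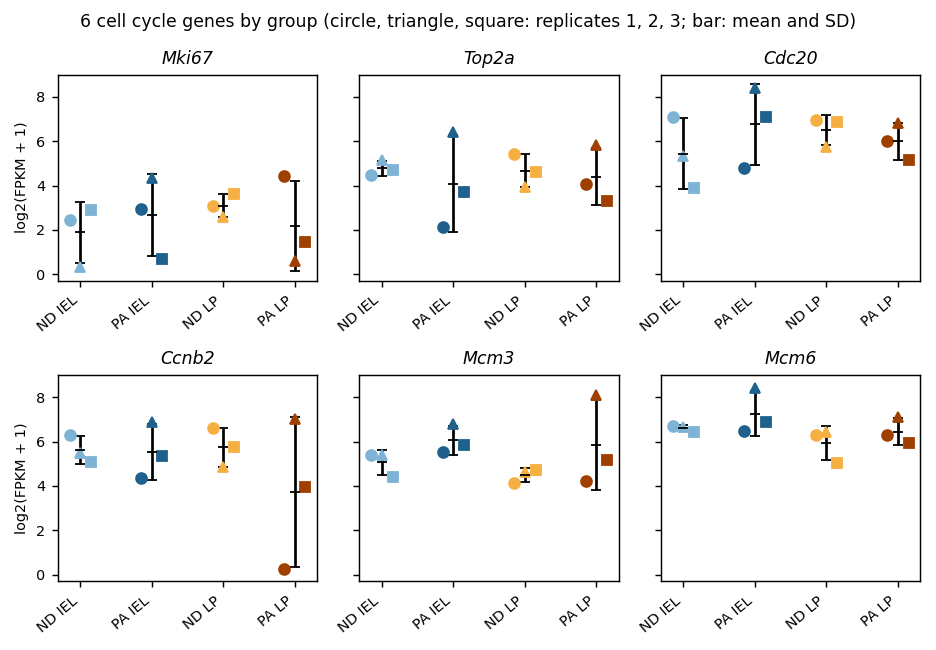
log2(FPKM + 1) of 6 cell cycle genes in the 4 groups, with 1 symbol for each replicate (circle 1, triangle 2, square 3) and bars for the mean and SD of 3 libraries. The PA milk groups overlap the ND groups in each panel except Mcm3 in IEL, where the lowest PA milk value (44.6 FPKM) is above the highest ND value (41.2 FPKM).

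In IEL the comparison of PA milk with ND mice found no cell cycle gene past an adjusted p of 0.05, as for all genes tested (0%), and 0 of 35 had an unadjusted p under 0.05 (limma), where all genes had 3.58%. The limma-voom fit on reads, with a quality weight for each library, called 0 as well, with 2 of 35 at an unadjusted p under 0.05. The log2 fold change was above 0 for 20 of the 35 genes, against 38% of all genes, with a median of 0.16 against -0.30. Of the S phase genes 10 of 14 were above 0 (median 0.39) and of the mitosis genes 10 of 21 (median -0.09). These counts rested on the sparsest library. Without both sparsest libraries 12 of 35 were above 0, 7 of 14 and 5 of 21, with medians of -0.01 and -0.33. The median over all genes was 0.00. In that fit 0 of 35 were called, as were 0 of all genes, and 3 of 35 had an unadjusted p under 0.05. The share of all genes under that unadjusted p is not given for this fit or for limma-voom, here or below. Such counts from these fits thus have no background to be read against. Scaling each library to its upper quartile gave 13 of 35 above 0 and a median of -0.39, with the S phase median at -0.16 and all genes at -0.58.

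The genes with the smallest p in IEL were Bub1b, Aurkb and Cdc20. Bub1b, encoding the checkpoint protein BUBR1, was at 4.76, 61.3 and 22.4 FPKM in PA milk mice and at 5.88, 0 and 6.21 FPKM in ND mice, a log2 fold change of 2.47 (SE 1.49, adjusted p = 0.947, limma) that was 1.66 without the 2 sparsest libraries. Its highest values were in PA milk replicates 2 and 3, and replicate 1 lay below ND replicates 1 and 3. Aurkb, the kinase of the chromosomal passenger complex, was at 13.6, 0.04 and 25.9 FPKM in PA milk and at 24.4, 56.5 and 27.6 FPKM in ND, a log2 fold change of -2.22 (SE 1.63, adjusted p = 0.947, limma) that was -0.81 without PA milk IEL replicate 2. Cdc20 was at 26.5, 333 and 138 FPKM in PA milk and at 134, 39.5 and 13.7 FPKM in ND, a log2 fold change of 1.33 (SE 0.99, adjusted p = 0.947, limma) that was 0.52 without the same library. In each of the 3 genes the groups overlapped. Only Mcm3, a subunit of the replicative helicase, had groups that did not overlap, with 44.6, 110 and 55.9 FPKM in PA milk and 41.2, 40.6 and 20.0 FPKM in ND (log2 fold change 0.99, SE 0.98, adjusted p = 0.949, limma, and 0.62 without the 2 sparsest libraries). That is 1 of 35 genes higher without overlap and 0 of 35 lower, where all genes had 2.97% and 5.22%.

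**Figure D4:**
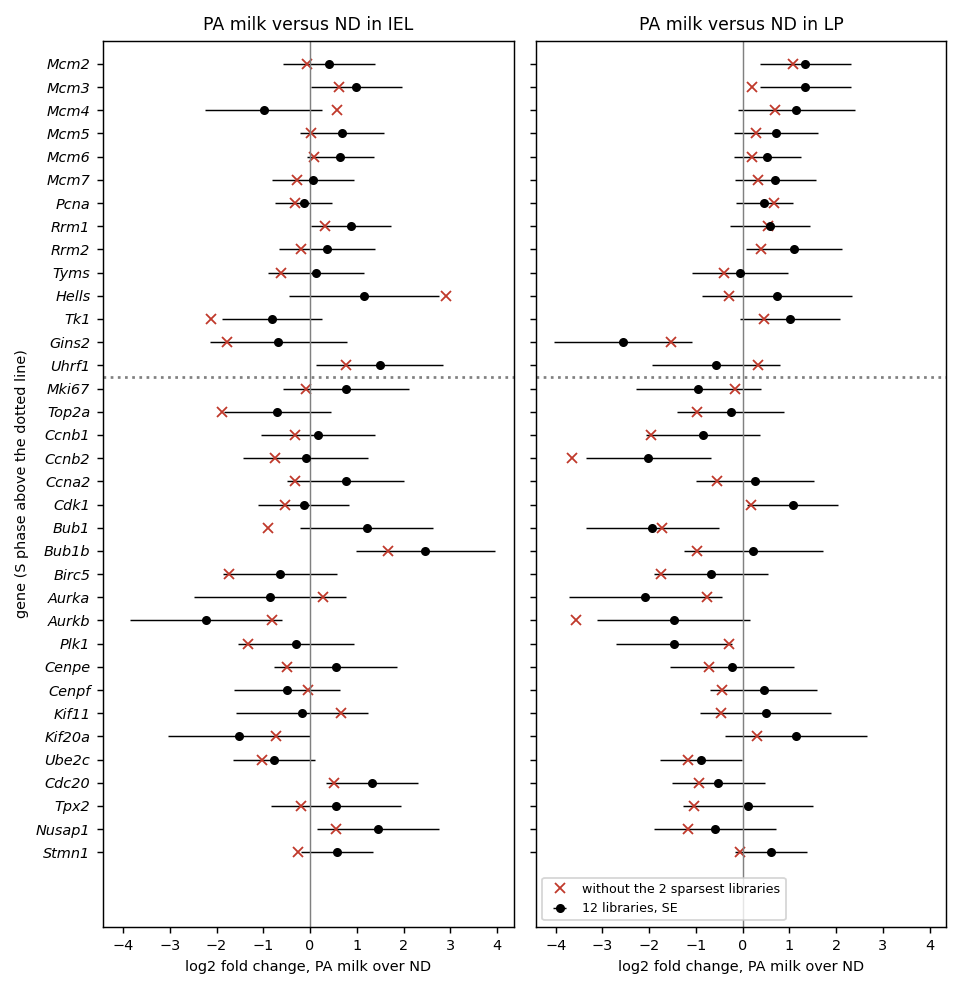
log2 fold change of PA milk over ND for each of the 35 cell cycle genes in IEL (left) and LP (right), as points with SE bars from the fit to 12 libraries and as crosses from the fit without the 2 sparsest libraries. The points range from -2.22 to 2.47 in IEL and from -2.56 to 1.34 in LP, none passes the test, and in LP the crosses of 19 of the 21 mitosis genes are below 0.

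In LP again 0 of 35 genes passed an adjusted p of 0.05 (all genes 0%) and 0 of 35 an unadjusted p under 0.05 (all genes 4.7%) with limma, and limma-voom called 0 with 1 of 35 at an unadjusted p under 0.05. The log2 fold change was above 0 for 19 of 35 genes, against 37.4% of all genes, with a median of 0.23 against -0.36. The S phase genes were above 0 in 11 of 14 cases, with a median of 0.71, and the mitosis genes in 8 of 21, with a median of -0.52. Without the 2 sparsest libraries the S phase count was 11 of 14 (median 0.32) and the mitosis count 2 of 21 (median -0.93), beside a median of -0.05 over all genes. In the same comparison 1 of 10 B and plasma cell genes was above 0 (median -2.80), as were 1 of 8 T cell genes (median -1.95) and 2 of 18 ILC3 and sort markers (median -1.72), and without the 2 sparsest libraries 2 of 10, 3 of 8 and 5 of 18 (medians -2.46, -0.31 and -1.65). The epithelium list had 0 of 20 above 0 in both fits (median -1.93, or -2.40 without the 2 sparsest libraries). The myeloid and crypt stem cell lists went the other way, with 9 of 12 (median 0.68) and 6 of 9 (median 0.69) above 0. Without the 2 sparsest libraries these were 6 of 12 (median 0.04) and 6 of 9 (median 0.27). The part of all these cells in the cell cycle values was not tested. With each of the 12 libraries left out in turn, the S phase count in LP was between 11 and 12 and the mitosis count between 2 and 13. The upper-quartile scaling kept both directions, with medians of 0.28 and -0.95 beside -0.61 over all genes, and gave 16 of 35 above 0.

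The smallest p values in LP were those of Gins2, Ccnb2 and Mcm2. Gins2, a subunit of the GINS complex of the replication helicase, was at 38.0, 0 and 0.77 FPKM in PA milk mice and at 37.4, 15.02 and 21.9 FPKM in ND mice, a log2 fold change of -2.56 (SE 1.47, adjusted p = 0.979, limma) that was -1.54 without PA milk LP replicate 2 and -4.18 without PA milk LP replicate 1. Ccnb2, encoding cyclin B2, was at 0.18, 127 and 14.2 FPKM in PA milk and at 96.6, 27.5 and 53.7 FPKM in ND, a log2 fold change of -2.02 (SE 1.34, adjusted p = 0.979, limma). For Ccnb2 the highest of the 6 values was in PA milk replicate 2 and the others in PA milk were below all ND values, so that the fold change was -3.66 without PA milk LP replicate 2 and -0.28 without PA milk LP replicate 1. Mcm2, another helicase subunit, was at 46.2, 53.7 and 18.9 FPKM in PA milk and at 18.7, 32.0 and 3.83 FPKM in ND, a log2 fold change of 1.34 (SE 0.98, adjusted p = 0.979, limma). For Mcm2 the groups overlapped only in that the lowest PA milk value lay below 1 ND value. Bub1 was the single gene whose groups did not overlap, with 1.23, 0 and 0 FPKM in PA milk and 7.97, 1.70 and 4.06 FPKM in ND (log2 fold change -1.93, SE 1.42, adjusted p = 0.979, limma). That is 1 of 35 lower and 0 of 35 higher, where all genes had 6.6% and 2.97%.

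The effect of the diet did not differ detectably between the layers for any cell cycle gene: 0 of 35 passed an adjusted p of 0.05 (all genes 0%) and 0 of 35 an unadjusted p under 0.05 (all genes 2.34%) in limma's test of the difference, and limma-voom called 0 with 1 of 35 at an unadjusted p under 0.05. The difference, LP minus IEL, was above 0 for 15 of 35 genes (all genes 49.2%) and had a median of -0.12. For Bub1 it was -3.13 (SE 2.01, 95% interval -7.41 to 1.14), where IEL held 0.77, 104 and 0.02 FPKM in PA milk and 2.54, 0.02 and 3.27 FPKM in ND. The 104 FPKM of PA milk IEL replicate 2 stood alone among the 12 libraries, of which the next held 7.97 FPKM, and without the 2 sparsest libraries the difference was -0.84. For Cdc20 the difference was -1.85 (SE 1.40), or -1.45 without those libraries, with 64.5, 111 and 34.4 FPKM in PA milk LP and 123, 52.5 and 115 FPKM in ND LP. For Kif20a, a kinesin of the late spindle, it was 2.66 (SE 2.14), or 1.02 without them, with 0.33, 0 and 19.3 FPKM in PA milk IEL, 9.95, 6.29 and 6.92 FPKM in ND IEL, 17.6, 38.0 and 1.46 FPKM in PA milk LP and 23.1, 5.12 and 0.12 FPKM in ND LP. The smallest adjusted p among the 35 was 0.9999 (limma).

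Between the layers, no cell cycle gene passed the test in either diet. In ND mice, 0 of 35 genes passed an adjusted p of 0.05 (all genes 0.032%) and 0 of 35 an unadjusted p under 0.05 (all genes 6.63%) for LP against IEL, and limma-voom called 0 with 1 of 35 at an unadjusted p under 0.05. The log2 fold change was above 0 for 18 of 35 genes (all genes 53.6%), 4 of the 14 S phase and 14 of the 21 mitosis genes, with medians of -0.14 and 0.13. The mitosis median turned to -0.24 with a scaling to 30 genes that leukocytes share, beside -0.19 over all genes. Mcm6, Plk1 and Cdk1 were lower in LP without overlap, 3 of 35 where all genes had 9.95%, and 0 of 35 were higher without overlap where all genes had 9.34%. Mcm6, a helicase subunit, was at 77.5, 84.5 and 31.7 FPKM in LP and at 104, 98.8 and 85.8 FPKM in IEL. Cdk1, the kinase that starts mitosis, was at 19.5, 19.7 and 16.3 FPKM in LP and at 33.5, 25.8 and 24.9 FPKM in IEL. Plk1, a mitotic kinase, was at 17.3, 7.75 and 19.1 FPKM in LP and at 39.5, 24.2 and 26.3 FPKM in IEL. The 3 smallest p values were those of Mcm2 (log2 fold change -1.16, SE 0.98), Cenpe (1.44, SE 1.32) and Cdc20 (1.09, SE 0.99), each with an adjusted p of 1 (limma). In IEL of ND mice Mcm2 was at 37.9, 28.0 and 29.8 FPKM, and Cenpe at 7.10, 0 and 1.84 FPKM against 15.6, 3.42 and 5.32 FPKM in LP, so that both overlapped between the layers.

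In PA milk mice 0 of 35 genes passed an adjusted p of 0.05 between LP and IEL (all genes 0.144%, limma), limma-voom called 0 of 35 with 0 at an unadjusted p under 0.05, and 17 of 35 were above 0 (all genes 51.1%), with a median of -0.04. Mcm4 had an unadjusted p under 0.05 (1 of 35, all genes 10.6%), and it was higher in LP without overlap (1 of 35, all genes 4.51%). This helicase subunit was at 66.1, 133 and 40.3 FPKM in LP and at 34.2, 0.11 and 21.6 FPKM in IEL, a log2 fold change of 2.91 (SE 1.25, adjusted p = 0.445, limma). The value of 0.11 FPKM was that of PA milk IEL replicate 2, and without that library the fold change was 1.35, or 0.90 without both sparsest libraries. Gins2 was at 38.0, 0 and 0.77 FPKM in LP and at 2.96, 144 and 54.1 FPKM in IEL (log2 fold change -2.95, SE 1.47, adjusted p = 0.491, limma, and -0.83 without the 2 sparsest libraries). Plk1 had 16.2, 0.05 and 7.51 FPKM in LP and 17.5, 99.9 and 7.0 FPKM in IEL (log2 fold change -2.20, SE 1.25, adjusted p = 0.548, limma), and without the 2 sparsest libraries, which held 0.05 and 99.9 FPKM, the fold change was -0.01. Both overlapped between the layers, and no gene was lower in LP without overlap (0 of 35, all genes 4.06%).

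Within a library, S phase genes were mostly above mitosis genes, and the balance of the stages varied most in LP. The S phase mean minus the mitosis mean, on the log2(FPKM + 1) scale, was 1.41, 0.87 and 1.23 in PA milk IEL replicates 1, 2 and 3 and 0.73, 1.13 and 1.02 in ND IEL. It was 1.75, 0.60 and 1.44 in PA milk LP and -0.30, 1.28 and 0.06 in ND LP. PA milk and ND overlapped in both layers, and ND LP replicate 1 was the single library in which the mitosis mean was the higher. In the same library 608 FPKM of Cd79a, a B cell gene, were measured, against at most 246 FPKM in any other. The B and plasma cell list as a whole took 0.230% of all FPKM there. It took 3.04% in PA milk IEL replicate 1 and 0.967% in ND LP replicate 3. The myeloid list took 1.49% in ND LP replicate 1, its highest share in any library. The part of B cells and of myeloid cells in the balance was not tested.

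**Figure D5:**
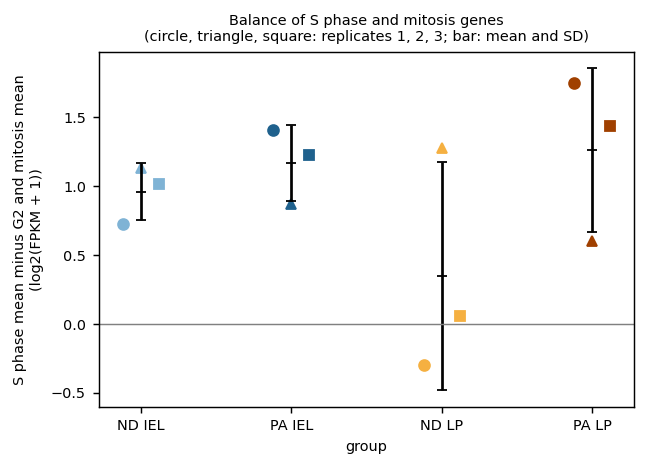
Mean log2(FPKM + 1) of the 14 S phase genes minus that of the 21 mitosis genes in each library, by group, with 1 symbol for each replicate (circle 1, triangle 2, square 3) and bars for the mean and SD of 3 libraries. Values run from -0.30 (ND LP replicate 1) to 1.75 (PA milk LP replicate 1), and the groups overlap.

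The 35 genes varied together only in part. Over the 12 libraries the median rank correlation (Spearman's rho) of the 595 pairs was 0.29, of mitosis pairs 0.34, of S phase pairs 0.29 and of pairs across the stages 0.24, against 0.05 over all pairs of genes tested. Without the 2 sparsest libraries (10 libraries) the medians were 0.26, 0.43, 0.20 and 0.18, against 0.01. The points share their library, so that depth, detection and the mix of cells enter each pair. Ccna2, encoding cyclin A2, and Mcm5, a helicase subunit, had the highest mean rho with the other genes, 0.50 and 0.48. Pcna at 0.01, and Aurka, Hells and Mcm4 at 0.04, had the lowest. Without the 2 sparsest libraries Ccna2 (0.46) and Mcm5 (0.42) were again highest, and the lowest were Mcm3 (-0.20), Mcm2 (-0.04) and Pcna (-0.01), while Aurka was at 0.36. Hells, a chromatin remodeller, was at 0.05 FPKM and 0 in PA milk IEL replicate 2 and ND IEL replicate 2, where Aurka was at 0.04 FPKM and 0, and these values were of 2 reads or fewer.

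None of the other genes of the cell cycle passed an adjusted p of 0.05 in either diet comparison (limma), as for all genes tested (0%). Of 17 cyclins, kinases and E2F factors of G1, 4 had a log2 fold change above 0 in IEL (median -0.40) and 9 in LP (median 0.28), where all genes had 38% and 37.4%. Of 44 further replication genes these were 21 (median -0.11) and 25 (median 0.11), and of 63 further mitosis genes 30 (median -0.18) and 22 (median -0.78). The further replication genes were thus above 0 less often than the 14 S phase genes, with 10 in IEL (median 0.39) and 11 in LP (median 0.71). The counts in IEL and LP without the 2 sparsest libraries were 6 and 9 of 17 (medians -0.29 and 0.19), 25 and 23 of 44 (0.33, of opposite sign in IEL, and 0.06) and 24 and 16 of 63 (-0.32 and -0.44). Unadjusted p values under 0.05 were reached by 0 G1 genes in IEL and 4 in LP, 2 in each direction, by 2 and 0 of the replication genes, and by 3 and 8 of the mitosis genes, with the replication and mitosis genes all on the lower side in PA milk, where all genes had 3.58% in IEL and 4.7% in LP. These counts without the 2 sparsest libraries were 0 in IEL for all 3 lists, and in LP 2 for G1, 0 for replication and 6 for mitosis genes. In LP 10 of the 63 mitosis genes were lower without overlap and 0 higher, beside 6.6% and 2.97% of all genes. Among them Mad2l1, a spindle checkpoint gene, was at 0, 0 and 6.09 FPKM in PA milk LP and at 48.8, 26.7 and 23.5 FPKM in ND LP (log2 fold change -4.07, SE 1.37, adjusted p = 0.979, limma). Cdk2, the kinase of S phase entry, was at 21.6, 49.1 and 17.5 FPKM in PA milk LP and at 6.58, 2.09 and 0.32 FPKM in ND LP (log2 fold change 3.13, SE 1.36, adjusted p = 0.979, limma). Cyclin E2 (Ccne2), a partner of that kinase, was at 0.58, 0 and 0 FPKM against 3.65, 6.07 and 3.91 FPKM (log2 fold change -2.22, SE 0.93).

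Of 16 inhibitors of the cell cycle kinases and genes linked to quiescence, 15 were tested, of which 4 were above 0 in IEL (median -1.16) and 3 in LP (median -1.08). Without the 2 sparsest libraries these were 9 of 15 (median 0.12) and 5 of 15 (median -0.19). Cdkn2b, encoding the CDK4 and CDK6 inhibitor p15, was at 44.7, 0.12 and 89.8 FPKM in PA milk IEL and at 114, 106 and 122 FPKM in ND IEL, and at 0, 0.08 and 1.62 FPKM in PA milk LP and 12.5, 26.0 and 52.6 FPKM in ND LP. All PA milk values were below all ND values in both layers, with log2 fold changes of -2.78 (SE 1.39) in IEL and -4.25 (SE 1.39) in LP and adjusted p of 0.947 and 0.979 (limma). Without the 2 sparsest libraries they were -0.84 and -4.06, the latter with an adjusted p of 0.123 (limma). The epithelium list was mostly below 0 too, with 1 of 20 genes above 0 in IEL (median -1.92) and 0 of 20 in LP (median -1.93), or 3 of 20 (median -0.61) and 0 of 20 (median -2.40) without the 2 sparsest libraries, and its part in the values of Cdkn2b was not tested.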

How the data were processed

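RNA of ILC3s sorted from IEL and LP was amplified with the SMART-Seq v4 Ultra Low Input kit and sequenced. The authors mapped reads to mm10 with TopHat (2.1.1), Bowtie (2.2.8.0) and SAMtools (0.1.18) and deposited FPKM values from Cufflinks (2.2.1). The deposited table of counts is a signal: counts divided by a size factor and rounded. Low values were whole multiples of a step per library (90.9% to 100% within 0.05), from which reads were recovered. The reads served a limma-voom alternative with a quality weight for each library, and the floor of 3 reads, which covers counting error only. SMART-Seq reads carry no molecular identifiers.

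Groups were taken from the sample labels. Nothing in the sources used here says whether same-numbered libraries came from 1 mouse or whether libraries pooled mice, so p-values measure the spread between these 12 libraries. Tests were made with limma (3.58.1, R 4.3.3) on log2(FPKM + 1), the variance following the mean level, in 1 fit with 4 group means, and Benjamini-Hochberg adjustment over 12502 genes. Fold changes are on that scale and understate changes of low genes. With 3 against 3 libraries an exact permutation test cannot go below p = 0.1, so none was run. Scripts were tested on simulated data. Python 3.11.15, pandas 2.3.3 and matplotlib 3.10.9 were also used.

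The 35 genes, the lists and the alternatives were chosen with earlier results of these data known. Levels were printed for Mki67, Top2a, the 3 genes of smallest p in each of 5 comparisons, those whose groups do not overlap, and up to 3 genes for each other list and diet comparison. Values of some marker genes are not reported here, though the list totals include them.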

Additional observations from a re-analysis of the deposited data

How the results depend on the processing

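None of the 35 genes was called in any comparison under any alternative, and none of the 3 genes of smallest p in each comparison changed direction. Other genes did: Mki67 went from 0.77 to -0.08 in IEL without PA milk IEL replicate 2 and, for LP over IEL in PA milk, from -0.51 to 1.12 without the 2 sparsest libraries, and Top2a in LP from -0.26 to 0.29 without PA milk LP replicate 3. The median log2 fold change of the 35 genes stayed within the spread between replicates, 0.77, except in IEL with limma-voom and quality weights, where it was -0.68 against 0.16, and for the difference between the layers without PA milk LP replicate 3, where it was 0.65 against -0.12. The causes were not tested. Leaving out 1 library at a time moved the median from -0.26 to 0.63 for the diet in IEL, -0.40 to 0.78 for the diet in LP, -0.30 to 0.55 for the layers in ND, -0.53 to 0.57 for the layers in PA milk and -0.60 to 0.65 for the difference, with 0 genes called. Deviations of same-numbered libraries correlated at -0.123 to 0.068, where both ends are pairs across diets, which cannot be 1 mouse. Between the layers of the same diet they correlated at -0.031 to 0.06. With 3 libraries in a group these values cannot tell whether a number marks 1 mouse. The replicate block left the medians at 0.16, 0.23, 0.00, -0.04 and -0.12 with 0 of the 35 called. Over all genes, 4 were called between the layers in ND and 18 in PA milk. These counts were 113 and 314 without the 2 sparsest libraries, 92 and 1 with only the groups compared, and 0 and 5 with the block. With limma-voom, which also weighted each library by quality, they were 350 and 0. They were 793 and 134 with quality weights on log2(FPKM + 1), which were chosen after seeing the data. With those weights 0 of the 35 were called and 10 of 35 were above 0 in IEL (median -0.46). The median SE of the 35 genes was 1.22 for each comparison of 2 groups, on the log2 scale. Changes of that size were not detectable here, and larger ones also went uncalled. Mcm4, for LP over IEL in PA milk, had a log2 fold change of 2.91 (SE 1.25, adjusted p = 0.445, limma).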

Other observations

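In the list of kinase inhibitors and quiescence genes, Klf2 and Cdkn2b, chosen after their values were seen, were the genes called between the layers once the 2 sparsest libraries were left out. That is 1 of 15 genes in ND and 2 of 15 in PA milk, where 113 and 314 of all 12502 genes were called. Klf2, encoding a factor known for keeping lymphocytes quiescent, was at 309, 532 and 314 FPKM in ND LP and at 24.6, 19.4 and 56.3 FPKM in ND IEL, and in PA milk mice at 452, 64.2 and 975 FPKM in LP and at 24.4, 57.1 and 34.6 FPKM in IEL. All LP values were above all IEL values of the same diet. The log2 fold change was 3.59 (SE 0.86, adjusted p = 0.218, limma) in ND and 3.03 (SE 0.86, adjusted p = 0.253, limma) in PA milk with 12 libraries, and 3.59 (adjusted p = 0.00468) and 4.47 (adjusted p = 0.00301) without the 2 sparsest. Cdkn2b went the other way, with a log2 fold change in PA milk mice of -3.56 (SE 1.39, adjusted p = 0.414, limma) with 12 libraries and -5.31 (adjusted p = 0.00578) without the 2 sparsest, and in ND mice of -2.09 in both fits (adjusted p = 0.950 and 0.199). The epithelium list was also lower in LP, with 2 of 20 genes above 0 in ND (median -1.78). In PA milk without the 2 sparsest libraries 0 of 20 were above 0 (median -3.67). There 7 of 20 were called, beside 314 of all 12502 genes. The part of the epithelium in these values was not tested.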
